A study of Mus musculus with 3 samples.

Results

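Mature neutrophils were examined in droplet-based single-cell RNA sequencing of peripheral blood mononuclear cells (PBMCs) from mice. They were taken as barcodes (droplets, each tagged by its own sequence) with at least 20 UMIs of S100a8 and S100a9 together, at least 1 UMI of the receptors Csf3r, Cxcr2 and Il1r2, and at most 2 UMIs of the granule genes Ngp, Camp and Ltf. At most 1 UMI of Cd79a and Cd79b and at most 1 of Cd3d, Cd3e and Cd3g was allowed, to leave out B and T cells. A UMI, or unique molecular identifier, marks a captured RNA molecule, so that counts of UMIs are counts of molecules. This rule found 1219 mature neutrophils among the 28333 barcodes that had at least 200 genes, at most 7.5% UMIs of mitochondrial genes and under 20% UMIs of haemoglobin genes, out of 44212 deposited. There were 9 among 8354 barcodes of young mice (8 weeks old), 748 among 9136 of aged mice (16 months old) and 462 among 10843 of aged mice of the same age given glycyrrhizic acid (GA), a triterpenoid saponin of liquorice root, for 1 month (aged-GA). The methods of the study describe all mice as C57BL/6 females, with GA injected into the tail vein every other day and phosphate-buffered saline given to controls, whereas the labels give no treatment for the young and aged groups. The study describes several mice per group, and how their cells came into 1 library is not given in the labels. Each group was 1 library, so no test was run, a difference between groups cannot be told apart from a difference between libraries, and all intervals are 95% intervals of counting error only. Sequencing depth was 58894294 UMIs for the young, 82260961 for the aged and 98155671 for the aged-GA library, of which mature neutrophils held 24972, 2726905 and 1669685.

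Neutrophils are short-lived granulocytes that leave the bone marrow under control of the G-CSF receptor and of the chemokine receptors CXCR2 and CXCR4, and they are drawn into tissue by chemokines, formylated peptides and complement fragments. Their granules are filled in stages, with primary granule proteins made in promyelocytes, secondary granule proteins such as lactoferrin in myelocytes, and gelatinase granule and membrane proteins in the last stages, after which the RNA of the early granule proteins is lost. Mature cells hold little RNA, much of it for the calcium-binding proteins S100A8 and S100A9, and answer Toll-like receptor and cytokine signals through NF-kappaB and AP-1 with interleukin 1 and chemokines. Where PBMCs are isolated by density, most neutrophils are removed. The methods of the study state that PBMCs were isolated from blood but not how. Shares here describe what was left after isolation, not blood.

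The 4 marker genes of neutrophils were checked in each library. The levels below are UMIs of a gene summed over the mature neutrophils of a library, divided by all UMIs of these cells and given per 1000000 (CPM). They come from 3′ tags, are not divided by gene length and are not a scale for protein. Csf3r, the receptor of G-CSF (chr4:126024550-126044440, plus strand, in mm10), had 2283, 1463 and 1726 CPM in young, aged and aged-GA mice, and Cxcr2, a receptor of chemokines with an ELR motif (chr1:74153989-74161246, plus strand), had 440, 574 and 594 CPM. Both were part of the rule. Il1b, which encodes interleukin 1 beta (chr2:129364570-129371139, minus strand), and G0s2, an inhibitor of triglyceride lipase (chr1:193272161-193273217, minus strand), were not. Il1b had 12934, 7576 and 11828 CPM, against 53.1 CPM in classical monocytes of aged mice, and G0s2 had 2042, 1557 and 1307 CPM, against 12.6 CPM. The primary granule genes Ms4a3 and Bpi were at 0 in all 3 groups of mature neutrophils, and Elane, neutrophil elastase, was at 0 in young and aged mice. Other primary granule genes were found, and their ratios are given below with the late granule genes. Ly6g, the surface protein used to sort mouse neutrophils, was low, with 80.1, 72.6 and 44.9 CPM, beside 672 CPM in granule-rich neutrophils of aged mice and 626 CPM in those of aged-GA mice.

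The median mature neutrophil held 2575 UMIs of 849 genes in young, 2239 of 895 in aged mice and 2444 of 962 in aged-GA mice, and the range reached from 510 to 48663 UMIs in aged and from 523 to 31981 in aged-GA mice. Barcodes of the largest size also carried markers of classical monocytes. Among members above 5000 UMIs, 0 of 1 in young, 100 of 106 in aged mice and 47 of 64 in aged-GA mice had at least 2 UMIs of Csf1r, Ccr2, Ly6c2 and F13a1 together, which are called monocyte-marked here. They made up 2 of 9, 155 of 748 (20.7%) and 81 of 462 (17.5%) members, and held 15.7%, 52.5% and 42.4% of the UMIs of mature neutrophils. The other members are called marker-poor. In the 2 young cells the name went against their other genes, as they had 2 such UMIs each, all of Csf1r, with Ccr2, Ly6c2, F13a1, Fn1 and S100a4 at 0, Il1b at 13800.2 CPM and Lyz2 at 2300.0 CPM. Ccr2, the receptor that brings classical monocytes into blood, split the members, and Ccr2, Lyz2, the lysozyme of myeloid cells, and Cxcr2 defined the classical monocytes, so levels of these genes restate how the cells were picked. S100a4, Fn1 and Il1b were in neither definition and were chosen after their values were seen. In aged mice S100a4, a calcium-binding protein, had 1808 CPM in monocyte-marked members, 40.1 in marker-poor members and 2870 in monocytes, and Fn1, which encodes fibronectin, had 594, 26.2 and 1116 CPM. Il1b had 2795, 12856 and 53.1 CPM in the same cells. In aged-GA mice S100a4 had 1300.0, 33.3 and 2584 CPM, Fn1 406, 2.08 and 889 CPM and Il1b 6022, 16099 and 133 CPM, so the pooled values of monocyte-marked members lay between those of the other cells for these 3 genes in both libraries. They pool cells near the limit with strongly marked ones, since 68 of 155 and 27 of 81 had at least 10 marker UMIs, and in these Il1b was at 1848 and 3655 CPM. Scrublet, a doublet caller, marked 13 aged members, 8 of them monocyte-marked, and 0 in young and aged-GA mice. It marked only 0.0277% of all filtered barcodes of the aged-GA library, so its calls there were treated as having failed. The part of doublets in the monocyte-marked members was not tested. Many results on gene levels are therefore also given for the 7, 593 and 381 marker-poor members, which hold 21059, 1295976 and 961971 UMIs. The ranking of abundant transcripts and the levels set beside granule-rich neutrophils and monocytes are over all members. So are the shares of thinned cells with a UMI, except those of Cd74. No barcode sequence was shared between members of different libraries, whereas 23, 28 and 18 were shared between the filtered barcodes of young and aged, aged and aged-GA, and young and aged-GA mice.

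**Figure D1:**
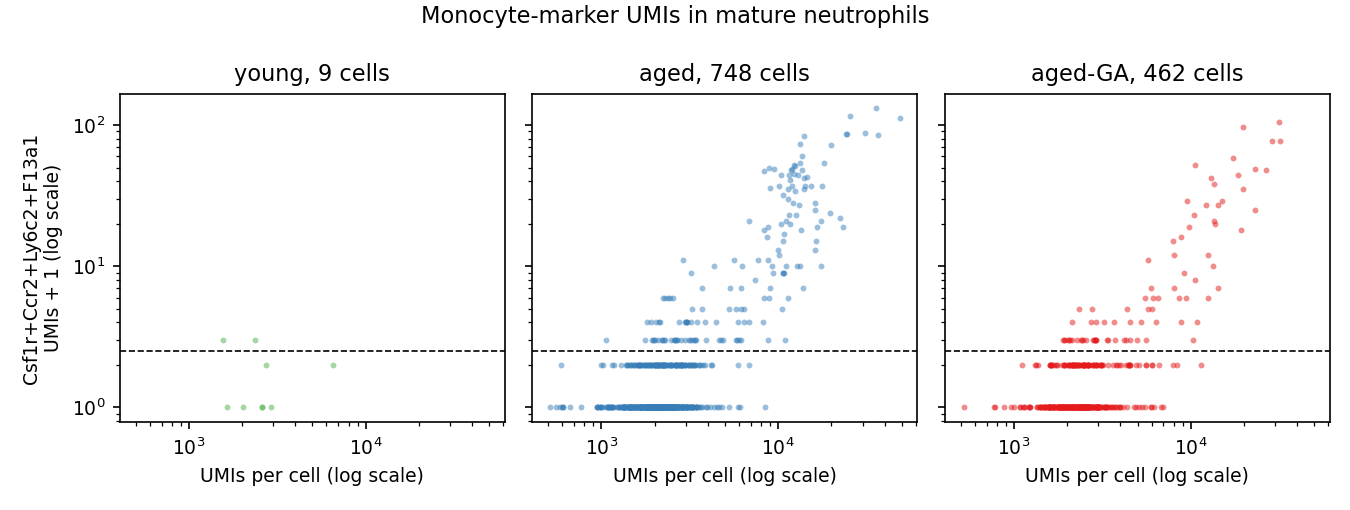
UMIs per cell (x axis, log scale) and UMIs of Csf1r, Ccr2, Ly6c2 and F13a1 plus 1 (y axis, log scale) of each mature neutrophil in young, aged and aged-GA mice, with a dashed line between marker-poor and monocyte-marked members. Of the members above 5000 UMIs, 100 of 106 lie above the line in aged mice and 47 of 64 in aged-GA mice.

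Mature neutrophils made up 0.108% (0.0493-0.204) of filtered barcodes in young, 8.19% (7.63-8.77) in aged mice and 4.26% (3.89-4.66) in aged-GA mice. The intervals of the 3 libraries did not overlap. The share in aged-GA mice was 0.520 times that in aged mice (0.462-0.585), a log2 ratio of -0.94, and the share in aged mice was 76.0 times that in young mice (39.8-167), a log2 ratio of 6.25 that rests on 9 young cells. Without the monocyte-marked members, the shares were 0.0838%, 6.49% and 3.51%, and the ratio of aged-GA to aged mice was -0.89 on the log2 scale (-1.07 to -0.70). The ratio also moved with the filter on mitochondrial UMIs. Mature neutrophils had few such UMIs, with a median of 0.347%, 0.387% and 0.613%, whereas B-cell barcodes had 5.57%, 3.53% and 4.81%, so that a limit of 5% in place of 7.5% took away more of the other barcodes than of neutrophils and gave shares of 0.238%, 8.49% and 5.88%. The log2 ratios were then -0.53, aged-GA over aged, and 5.15, aged over young.

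Granule-rich neutrophils, a less mature stage with at least 10 UMIs of Ngp, Camp and Ltf, were 0.0599%, 0.930% and 0.480% of filtered barcodes, with 5, 85 and 52 cells. There were 8.80 mature neutrophils for each granule-rich neutrophil in aged mice and 8.88 in aged-GA mice, so that both stages stood at near the same ratio in these libraries, and 1.80 in young mice. Classical monocytes had the larger difference between the aged libraries, with 651 cells (7.13%) in aged mice and 111 (1.02%) in aged-GA mice. Their log2 ratio was -2.80 (-3.10 to -2.51), and its interval did not overlap that of mature neutrophils. B-cell barcodes, the largest class, were 42.8% and 44.6% of the aged and aged-GA libraries. A share depends on all other cells of a library, so these values do not give the number of neutrophils in blood.

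**Figure D2:**
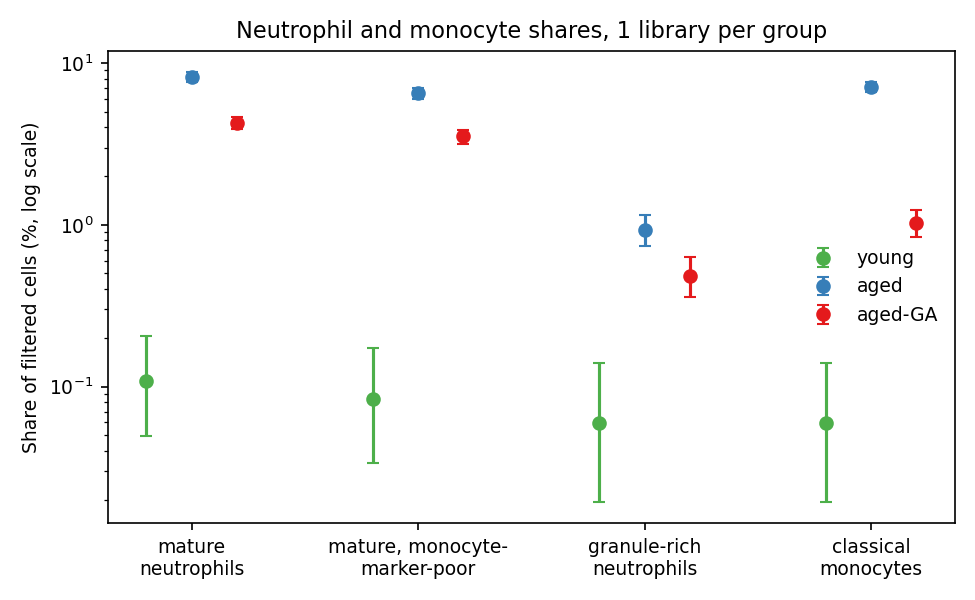
Share of filtered barcodes (percent, y axis, log scale) of mature neutrophils, marker-poor mature neutrophils, granule-rich neutrophils and classical monocytes in the young, aged and aged-GA libraries, where points are 1 library each and bars are exact binomial 95% intervals. Mature neutrophils were at 0.108%, 8.19% and 4.26%, and classical monocytes at 0.0599%, 7.13% and 1.02%.

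The most abundant transcripts of mature neutrophils, by the mean CPM of aged and aged-GA mice, were S100a9 and S100a8, followed by Tmsb4x, Malat1, Actb, Gm42418, Il1b, Retnlg, Fth1 and Cxcl2. S100a9 had 56463, 48769 and 43966 CPM in young, aged and aged-GA mice and S100a8 had 48494, 49475 and 38650 CPM. Il1b, Retnlg and Cxcl2, which encode a cytokine, a resistin-like secreted protein and a chemokine that attracts neutrophils, thus stood beside genes of the cytoskeleton such as Actb, which had 15898, 16295 and 14079 CPM. Gm42418, at 22665, 8872 and 15179 CPM, overlaps ribosomal RNA repeats.

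Set beside granule-rich neutrophils, the 10 genes with the highest ratios in both aged libraries were Il1b, Ccrl2, Ptgs2, Cxcl2, Acod1, Atf3, Csf1, Sirpb1b, Sirpb1c and Wfdc17. As cells were picked by their UMIs, these values describe the classes and test nothing. Il1b had 7576 CPM in mature and 224 CPM in granule-rich neutrophils of aged mice, and 11828 and 350 CPM in aged-GA mice. Ccrl2, a receptor that binds chemerin without signalling, had 205 and 4.87 CPM in aged and 416 and 22.8 CPM in aged-GA mice. Ptgs2, cyclooxygenase 2, had 510 and 14.6 CPM in aged mice, and 734 and 53.2 CPM in aged-GA mice. Granule genes stood at the other end. Camp, the cathelicidin precursor, had 5.13 CPM in mature and 21523 CPM in granule-rich neutrophils of aged mice, and Lcn2, the iron-siderophore binder lipocalin 2, which the rule did not use, had 1184 and 14926 CPM. Cebpe, a transcription factor of the granule stages, had 11.7 and 229 CPM. Beside classical monocytes of aged mice, Retnlg had 10479 against 16.7 CPM, Mmp9, gelatinase B, had 1107 against 2.30 CPM, and Hdc, the enzyme that makes histamine, had 1390 against 7.52 CPM.

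The promoters of Nfkbia and Cxcl2 are shown because Nfkbia, the gene of the inhibitor IkappaB-alpha, and Cxcl2, the gene of a neutrophil chemokine, are known targets of NF-kappaB and were among the genes that separated the libraries. They were chosen after their values were seen. Both run from 250 bases before to 50 after the start of the gene in RefSeq (GRCm38.p6), 5′ to 3′ on the strand of the gene, and capitals mark matches to GGGANNNNCC on either strand, a simple form of the NF-kappaB site.

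Nfkbia, chr12:55492598-55492897, minus strand: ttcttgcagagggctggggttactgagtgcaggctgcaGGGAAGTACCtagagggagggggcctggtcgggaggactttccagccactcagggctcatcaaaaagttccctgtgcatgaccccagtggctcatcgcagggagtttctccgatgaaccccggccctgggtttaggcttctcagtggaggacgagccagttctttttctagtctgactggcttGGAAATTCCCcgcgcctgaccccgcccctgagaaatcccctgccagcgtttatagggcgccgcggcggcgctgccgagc

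Cxcl2, chr5:90903649-90903948, plus strand: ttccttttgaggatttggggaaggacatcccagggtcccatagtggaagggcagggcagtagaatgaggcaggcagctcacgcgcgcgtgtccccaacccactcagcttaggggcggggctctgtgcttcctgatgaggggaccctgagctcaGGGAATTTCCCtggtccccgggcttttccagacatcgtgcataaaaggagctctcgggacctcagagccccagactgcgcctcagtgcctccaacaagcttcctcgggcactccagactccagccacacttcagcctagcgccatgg

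The 2 matches of Nfkbia start at -212 and -29 from the start of the gene, and the 2 of Cxcl2 overlap and start at -97 and -96. The letters were found in 6195 of 27025 genes with a promoter in RefSeq (22.9%), in 8 of 14 genes of NF-kappaB and its feedback inhibitors, in 8 of 14 chemokine and cytokine ligands, in 7 of 16 immediate early genes, in 4 of 13 genes of interleukin 1 and the inflammasome and in 2 of 11 genes of gelatinase and late granule proteins. The promoters of Il1b, Ccl3 and Retnlg held no match in this window. A match is a description of letters and was not tested as a site.

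Aged-GA and aged mature neutrophils were alike in most genes. Ratios are log2 ratios of CPM plus 10, over genes with at least 50 UMIs in both libraries together, and a gene was counted where it differed 2-fold or more. Across the 6198 genes of all members, which are not independent replicates, Pearson's r of the log levels was 0.978, the median ratio was 0.00, 14 genes (0.226%) were 2-fold or more higher and 18 (0.29%) were 2-fold or more lower in aged-GA mice. In marker-poor members, r was 0.975 over 3856 genes, the median ratio was 0.06, 32 genes (0.83%) were higher and 6 (0.156%) were lower. The counts in all members moved with the settings. There were 42 higher and 68 lower at a pseudocount of 1 CPM, and 8 and 5 at 50 CPM. Without members with MHC class II UMIs, 31 were higher and 181 lower. The 10 largest ratios in all members were of Nrgn, Tsc22d1, H2-Aa, Ctla2a, H2-Eb1, H2-Ab1, Cd74, Gng11, Clu and Ppbp, which are known for platelets, for MHC class II or, as Ctla2a, for T cells among others. The 10 lowest were of Gzma, Mgp, Mt1, Lgals1, Tmsb10, Cd302, Hopx, Ccl5, Oas1a and Uqcrb.

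**Figure D3:**
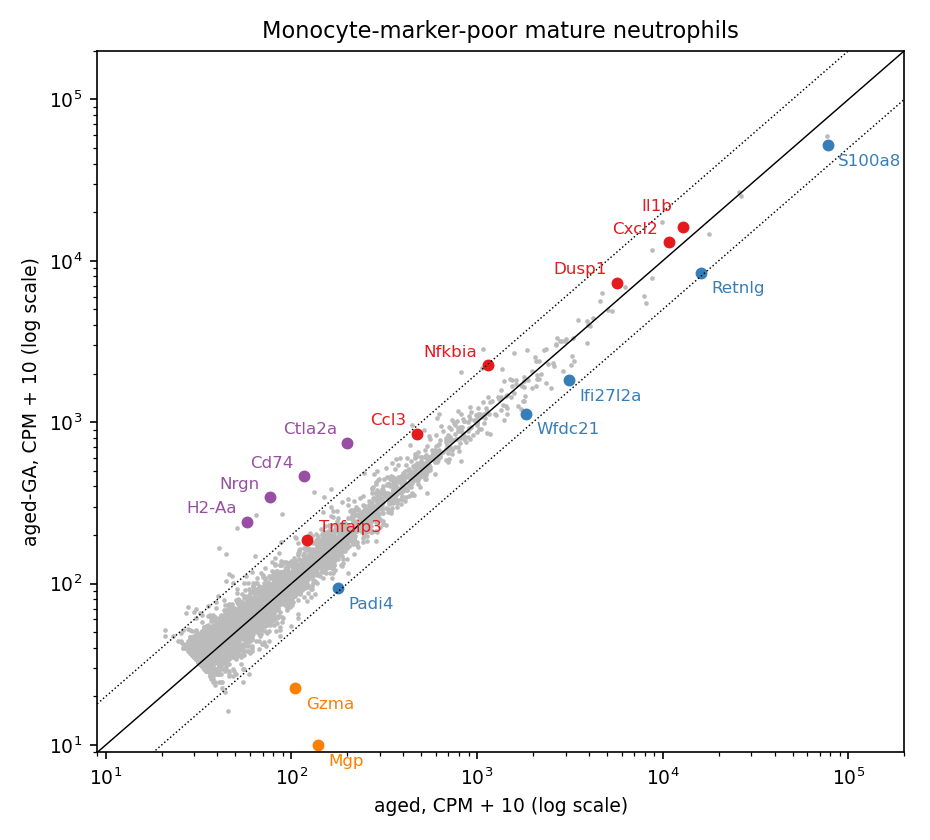
Level of each gene in marker-poor mature neutrophils of aged (x axis) and aged-GA mice (y axis), in CPM plus 10 on log axes, with dotted lines at a 2-fold difference. Il1b, Cxcl2, Dusp1, Nfkbia, Ccl3 and Tnfaip3 lie above the diagonal, S100a8, Retnlg, Ifi27l2a, Wfdc21 and Padi4 below it, and 32 of 3856 genes lie 2-fold or more above and 6 below.

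Among the cytokine and chemokine ligands, Il1b, Cxcl2, Ccl3 and Ccl4 had higher values in aged-GA than in aged mice. In marker-poor members, Il1b had 12774 CPM (11293-14395) in young, 12856 (12661-13053) in aged mice and 16099 (15847-16355) in aged-GA mice, a ratio of 0.32, aged-GA over aged. Over all members the ratio was 0.64. Cxcl2 (chr5:90903871-90905938, plus strand) had 19802 CPM (17946-21796), 10759 (10581-10939) and 13063 (12835-13293) in marker-poor members, a ratio of 0.28. The intervals of aged and aged-GA mice did not overlap for either gene. Ccl3 and Ccl4, which draw monocytes and T cells, were of lower level and of larger ratio. Ccl3 had 463 CPM (427-501) in aged mice and 841 (784-901) in aged-GA mice, a ratio of 0.85, and Ccl4 had 617 (575-662) and 1108 (1043-1177), a ratio of 0.83. These UMIs were uneven over cells, which the intervals do not cover. Of the marker-poor members, 352 of 593 in aged and 187 of 381 in aged-GA mice had no UMI of Ccl3 or Ccl4. The tenth of cells with the most held 70.7% and 61.8% of them. In young mice Ccl3 had 47.5 CPM, from 1 UMI. Tnf, tumour necrosis factor, was rare, with 40.9 and 76.9 CPM in aged and aged-GA mice, and Csf1, the growth factor of macrophages, had 356 and 580 CPM, a ratio of 0.69. Ccl6, a CC chemokine that resting mouse myeloid cells express, went the other way, at 2341 CPM in aged mice and 1746 in aged-GA mice. Of the 13 ligand genes counted in marker-poor members, 9 were above 0, beside 59.7% of all genes counted, and none was past 2-fold in either direction. Their median ratio was 0.15, beside 0.06 over all genes. Over all members, 11 of 15 were above 0, beside 50.3% of all genes, and 1, Ccl5, was 2-fold or more lower, beside 0.29% of all genes. Its ratio was -1.20 over all members and -0.26 in marker-poor members.

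Receptors for chemokines and chemoattractants had a median ratio of 0.31 over 10 genes in marker-poor members and 0.44 over all members, and none was past 2-fold. Cxcr4, the receptor that holds neutrophils in marrow and returns them there, had 522, 920 and 1140 CPM in young, aged and aged-GA mice, a ratio of 0.31. Ccr1, a receptor of CCL3, had 771 CPM in aged mice and 1002 in aged-GA mice. Ccrl2 had 314 and 511 CPM, a ratio of 0.69, which was the highest of the group. Cxcr2 was lower in aged-GA marker-poor members, with 904 CPM (853-957) in aged mice and 779 (724-836) in aged-GA mice, a ratio of -0.21, while over all members the ratio was 0.05. Csf3r was at 2389 and 2288 CPM, with intervals that overlapped. Il1r2, the decoy receptor of interleukin 1, had 1339 and 1570 CPM, and Il1rn, the antagonist of its receptor, 182 and 166 CPM. Cxcr2, Csf3r and Il1r2 were part of the rule, so their levels are a description. Cxcr2 is on the receptor list and Il1r2 on that of interleukin 1. The genes of interleukin 1 and the inflammasome as a list had a median ratio of 0.17 over 10 genes, with Nlrp3, the sensor of the inflammasome, at 588 and 706 CPM.

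NF-kappaB feedback genes had the highest median ratio of the signalling lists, 0.51 over 18 genes in all members and 0.39 over 17 in marker-poor members, where the medians of all genes were 0.00 and 0.06. In marker-poor members 14 of the 17 were above 0, beside 59.7% of all genes, and 1 was past 2-fold, beside 0.83% of all genes. This was Nfkbie, an IkappaB protein, which had 13.1 CPM in aged mice and 37.4 in aged-GA mice. The largest difference in abundance was that of Nfkbia (chr12:55489410-55492647, minus strand), with 10067 CPM (8757-11517) in young, 1131 (1074-1191) in aged mice and 2248 (2155-2345) in aged-GA mice, a ratio of 0.98, aged-GA over aged, and 0.96 over all members. The 3 intervals were apart, with the young library highest and the aged library lowest. In other cells Nfkbia had 544 CPM in B-cell barcodes of aged and 516 in those of aged-GA mice, 693 and 698 in T-cell barcodes, 659.7 and 669.8 in classical monocytes, and 300.2 and 329 in granule-rich neutrophils. Tnfaip3, the ubiquitin-editing enzyme A20, had 111 and 176 CPM in marker-poor members, a ratio of 0.62. Ier3, an early response gene, had 154 and 288 CPM, and Rel, the subunit c-Rel, had 119 and 187. The subunit genes Rela and Nfkb1 did not share this, at 67.1 and 66.5 CPM and 80.2 and 67.6 CPM.

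Immediate early genes, which are induced within minutes of a stimulus, were all on the same side. All 18 that were counted in all members and all 17 in marker-poor members had a ratio above 0, beside 50.3% and 59.7% of all genes, with medians of 0.45 and 0.31, and none was past 2-fold. Dusp1, a phosphatase of MAP kinases, had 5793, 5689 and 7309 CPM in marker-poor members of young, aged and aged-GA mice, a ratio of 0.36. Junb had 4084, 3488 and 4256 CPM, Fos 1377, 2296 and 2798 CPM, and Egr1 380, 2042 and 2527 CPM. The aged-GA library was the highest for each of these genes. The immediate early list was also above the median of all genes in the same libraries of other cells, with 0.52 in granule-rich neutrophils, 0.40 in classical monocytes, 0.18 in B-cell and 0.10 in T-cell barcodes, beside medians of all genes of 0.16, 0.03, -0.03 and -0.05. The NF-kappaB list had 0.63, 0.26, 0.01 and -0.06 in these cells.

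On the list of gelatinase and late granule proteins, Retnlg, Wfdc21, Wfdc17 and Padi4 had lower values in aged-GA than in aged mice. Retnlg (chr16:48872621-48874496, plus strand) had 7265 CPM (6160-8512) in young, 16118 (15901-16338) in aged mice and 8444 (8262-8630) in aged-GA mice in marker-poor members, a ratio of -0.93, and -0.73 over all members. The aged library was the highest, and the intervals of young and aged-GA mice overlapped. However, 49.0% of the young UMIs were in 1 cell, so the young value and this overlap depend on that cell. Wfdc21, a protein with a whey acidic domain, had 1816 CPM in aged mice and 1121 in aged-GA mice, a ratio of -0.69, and Wfdc17 had 3307 and 2374, a ratio of -0.48. Padi4, the enzyme that citrullinates histones in neutrophil extracellular traps, was at 168 CPM (147-192) and 84.2 CPM (66.9-105), a ratio of -0.92. Mmp8, neutrophil collagenase, did not share the direction, with 591 and 628 CPM. Of the 12 late granule genes counted in marker-poor members, 2 were above 0, beside 59.7% of all genes, and none was past 2-fold, with a median ratio of -0.45, while over all members the median was -0.29. In other cells of the same libraries it was -0.62 in B-cell barcodes, -0.15 in T-cell barcodes, -0.18 in granule-rich neutrophils and -0.17 in classical monocytes. The medians of all genes in these cells were -0.03, -0.05, 0.16 and 0.03. In members with no UMI of Cd74, H2-Aa, H2-Ab1 or H2-Eb1, the median was -0.0846 and the ratio of Retnlg -0.52. The 6 secondary granule genes counted had a median of -0.34, and Lcn2 among them had 1722 and 1201 CPM. Of the primary granule genes, 2 were counted over all members, with ratios of -0.41 and -1.13. Thus 1 was 2-fold or more lower, beside 0.29% of all genes. Aged over young, 1 was counted over all members, with a ratio of 2.56, beside 42.1% of all genes 2-fold or more higher. It had no young UMI, so its ratio rests on the pseudocount, and 1807 of the 2120 genes in that share had none either. In marker-poor members 0 were counted in either comparison.

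S100a8 (chr3:90668978-90670035, plus strand) and S100a9 (chr3:90692632-90695721, minus strand), which form calprotectin, were part of the rule, and their levels are a description. S100a8 had 53611, 77126 and 52316 CPM in marker-poor members of young, aged and aged-GA mice, a ratio of -0.56, aged-GA over aged, and -0.36 over all members. S100a9 had 61731, 76368 and 59540 CPM, with ratios of -0.36 and -0.15. In marker-poor members the aged library was the highest for both genes, whereas over all members S100a9 had 56463 CPM in young and 48769 in aged mice. S100a6, another member of the family, which the rule did not use, had 7123, 8076 and 5456 CPM, a ratio of -0.56, and S100a11 had 6506, 8692 and 7848 CPM. The list of 7 S100 genes holds S100a8 and S100a9, so its tally and median restate in part how the cells were picked. Over all members none of the 7 S100 genes was above 0, beside 50.3% of all genes, but S100a11 among them had 5903 and 5901 CPM. In marker-poor members 1 of the 7 was above 0, beside 59.7%, and the median ratio was -0.21. RNA of S100a8 outside neutrophils also differed, since B-cell barcodes held 2.7, 1161 and 472 CPM of it in the young, aged and aged-GA libraries, and its part in the levels of members was not tested. G0s2 had 2497 CPM in aged and 1609 in aged-GA marker-poor members, a ratio of -0.63. Fth1, the heavy chain of ferritin, had 8776 and 11714 CPM and Ftl1, its light chain, 4684 and 6304 CPM. Acod1, the enzyme that makes itaconate, had 508 and 889 CPM in marker-poor members, a ratio of 0.79, and 1.07 over all members.

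Interferon-stimulated genes did not share a direction. Of 51 counted in all members, 19 were above 0, beside 50.3% of all genes, with a median ratio of -0.11, and of 41 in marker-poor members, 19 were above 0, beside 59.7%, with a median of -0.07. In each set 1 gene, Oas1a, an oligoadenylate synthetase, was 2-fold or more lower, beside 0.29% and 0.156% of all genes, at 34.0 CPM in aged and 11.4 in aged-GA marker-poor members. Ifi27l2a had 1187, 3134 and 1822 CPM in young, aged and aged-GA marker-poor members, a ratio of -0.78, and Ifitm1 570, 2895 and 2068 CPM, a ratio of -0.48, whereas Ifitm2, its neighbour in the family of membrane proteins that block viral entry, had 2137, 2341 and 2839 CPM. For the other lists in marker-poor members, where the median over all genes was 0.06, the median ratio was 0.01 for adhesion genes (11 genes counted), -0.05 for Fc and complement receptors (17), 0.03 for growth factor and cytokine receptors (17), 0.09 for Toll-like receptors, adaptors and C-type lectins (17), 0.06 for NADPH oxidase and antioxidants (16), 0.07 for actin and motility (28), 0.17 for survival and apoptosis (18), 0.12 for MHC class I (13), 0.03 for heat shock chaperones (9), 0.22 for glucocorticoid-responsive genes (10), 0.03 for glycolysis (17), -0.01 for lipid mediators (10), 0.08 for transcription factors (20), -0.06 for CDK inhibitors, p53 targets and cell cycle (9) and 0.00 for Ly6 and other surface proteins (19). Of the glucocorticoid-responsive genes 9 of 10 were above 0, beside 59.7% of all genes, and 13 of 13 over all members, beside 50.3%, where the median was 0.34. This list shares Nfkbia with the NF-kappaB list, Dusp1 with the immediate early list, Il1r2 with the interleukin 1 list and Cebpd with the transcription factors. Among these lists, only the glucocorticoid list held a gene past 2-fold, 1 of its 10, beside 0.83% of all genes. This was Tsc22d1, at 30.9 and 156 CPM. Its better known relative Tsc22d3, or GILZ, had 454 and 530 CPM. Mcl1, on which neutrophil survival depends, had 2640 and 3003 CPM, and Tlr2 had 197 and 270 CPM.

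**Figure D4:**
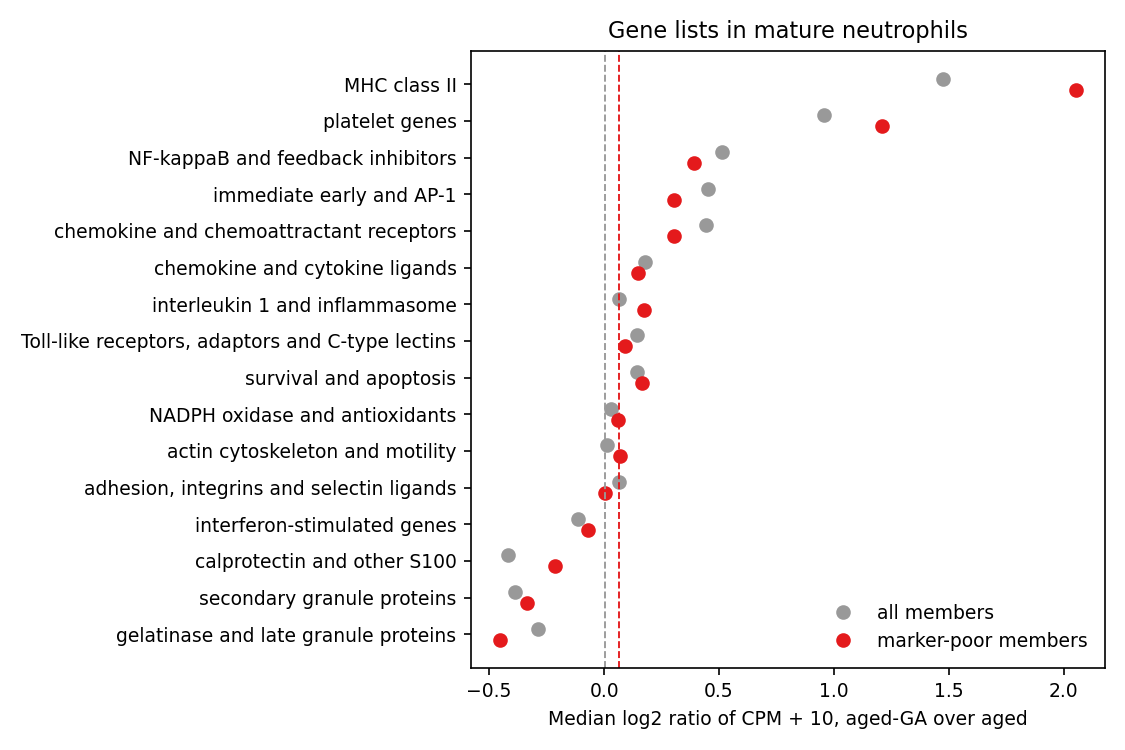
Median log2 ratio of CPM plus 10, aged-GA over aged (x axis), of each gene list (y axis) in all mature neutrophils (grey) and in marker-poor members (red), with dashed lines at the medians of all genes, 0.00 and 0.06. MHC class II (1.47 and 2.05), platelet (0.96 and 1.21) and NF-kappaB feedback genes (0.51 and 0.39) lie to the right, and late granule (-0.29 and -0.45) and S100 genes (-0.42 and -0.21) to the left. The S100 list includes S100a8 and S100a9, which were part of the rule.

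Platelet genes were higher in aged-GA marker-poor members, with 5 of the 5 counted past 2-fold and a median ratio of 1.21, beside 0.83% of all genes. Over all members 1 of the 6 counted was past 2-fold, beside 0.226% of all genes, and the median ratio was 0.96. Pf4, platelet factor 4 and the most abundant of the 8, had 0, 140 and 336 CPM in young, aged and aged-GA mice, and Ppbp, pro-platelet basic protein, 0, 34.7 and 142 CPM. Nrgn, a calmodulin-binding protein that platelets carry and that is not on the list, had 66.4 CPM in aged and 332 in aged-GA marker-poor members, and 2 UMIs in young ones. All 8 platelet genes were found in aged and aged-GA marker-poor members and none in young ones, with sums of 276 and 733 CPM, and over all members the sums were 293 and 616 CPM. They were in few cells, as 16.7% of marker-poor members in aged mice and 32.0% in aged-GA mice had a UMI of any of them, whereas 1.94% and 2.44% of B-cell barcodes and 3.54% and 4.27% of T-cell barcodes had one. Platelet RNA was thus more frequent with neutrophils than with lymphocytes in both libraries, and neutrophils hold fewer UMIs than these lymphocytes do. In members without a platelet UMI, the ratio of Nfkbia was 1.13 and that of Retnlg -0.97.

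MHC class II genes, which B cells, dendritic cells and some monocytes express, had a median ratio of 2.05 over 4 genes in marker-poor members, all past 2-fold, beside 0.83% of all genes, and of 1.47 over 7 in all members, 5 of them past 2-fold, beside 0.226%. Without members above the 90th percentile of UMIs the median was 0.88. Cd74, the invariant chain and the most abundant of the 10, had 0, 107 and 451 CPM in marker-poor members, and H2-Aa had 0, 47.8 and 232 CPM. Of the 434 Cd74 UMIs in aged-GA marker-poor members, 242 were in 1 cell, so the ratio of Cd74 depends on that cell. Cd74 was found in 20.6% of aged and 40.7% of aged-GA marker-poor members, and also in 27.0% and 41% of T-cell barcodes, which should lack it. After each barcode was thinned to 500 UMIs, the shares with a Cd74 UMI were 6.24% (4.43-8.50) and 10.2% (7.38-13.7) of marker-poor members and 4.85% (3.91-5.93) and 5.39% (4.57-6.32) of T-cell barcodes. The intervals of aged marker-poor members and T-cell barcodes overlapped, and in aged-GA mice they were apart. The source of this RNA was not tested. The 10 genes of B cells together had 343 CPM in aged members and 545 in aged-GA members, led by Igkc. The 6 of them that were counted were above 0, beside 50.3% of all genes, and none was past 2-fold.

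Some of the largest ratios came from few cells. Mgp, a matrix protein of vessel walls, had 168 UMIs in aged members, 167 of them in 1 cell, and 0 in aged-GA members. Gzma, a granzyme of NK and T cells, had 437 UMIs in 33 aged members, 118 of them in 1 cell, and 14 UMIs in 11 aged-GA members. The 8 NK-cell genes together had 0, 227 and 14.4 CPM in young, aged and aged-GA mice, led by Gzma. The ratio of Tmsb10, thymosin beta 10, was -1.33 over all members, at 2615 and 1034 CPM, and -0.35 in marker-poor members, at 257 and 200 CPM. It was at 7055 CPM in classical monocytes of aged mice. The 10 genes of classical monocytes had 961, 2900 and 1988 CPM in all members and 950, 276 and 338 CPM in marker-poor members. Ccr2, Ly6c2, F13a1, Fn1 and Ms4a4c among them were at 0 in young members. As Ccr2, Ly6c2 and F13a1 were also used to split the members, the sums of marker-poor members restate that split in part. Ctss, cathepsin S, was the most abundant of the 10 in aged and aged-GA members, at 664 and 474 CPM. The 8 erythroid genes, led by Hbb-bs, had 1482, 11118 and 9275 CPM in members and 1216, 9539 and 6868 CPM in B-cell barcodes, and the 11 T-cell genes had 80.1, 70.4 and 116 CPM. The part of any of these in the results was not tested.

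The shares of cells with a UMI were also compared at equal depth. Each barcode was thinned to 500 UMIs, and none of the members was left out, as the smallest held 510. Nfkbia was then found in 35.8% (32.4-39.4) of aged and 47.0% (42.3-51.6) of aged-GA members, and in 23.9% and 21.7% of B-cell and 25.3% and 26.8% of T-cell barcodes. Retnlg was found in 88.0% (85.4-90.2) and 76.6% (72.5-80.4) of members, with a background of 2.46% and 1.01% in B-cell barcodes. For both genes the intervals of aged and aged-GA members were apart. Without thinning, Nfkbia was found in 76.6% and 86.8% of members and Retnlg in 96.4% and 94.8%. Il1b was found in 91.7% and 97.0%, Cxcl2 in 75.8% and 83.1%, and Dusp1 in 84.6% and 94.2% of thinned members, beside 1.74% and 1.84% for Il1b and 9.03% and 8.72% for Dusp1 in B-cell barcodes. Ccl3 was found in 12.7% (10.4-15.3) and 21.0% (17.4-25) of members and in 0.716% and 0.496% of B-cell barcodes. Ifi27l2a was found in 55.6% and 40.5% of members, but also in 31.8% and 22.8% of B-cell and 40.7% and 29.1% of T-cell barcodes, so the same direction stood in cells of each class. In young mice Nfkbia, Il1b and Cxcl2 were each in 9 of 9 thinned members (66.4-100%).

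Among marker-poor members the quartiles of Cxcl2 and Retnlg lay further apart, relative to their medians, than those of Il1b. In aged mice Il1b took a median of 1.30% of the UMIs of a cell, with quartiles of 0.812% and 1.85%, Retnlg 1.13%, with 0.525% and 2.01%, and Cxcl2 0.850%, with 0.259% and 1.57%. In aged-GA mice the median was 1.62% for Il1b, with quartiles of 1.09% and 2.10%, 0.499% for Retnlg, with 0.208% and 1.17%, and 0.927% for Cxcl2, with 0.3001% and 1.87%. These are a few UMIs per cell at the lower quartile of Retnlg and Cxcl2, and counting error, which widens low shares more than high ones, was not taken away. S100a8 and S100a9 together took a median of 9.79%, 13.6% and 9.86% of the UMIs in young, aged and aged-GA mice. Shares of a cell's UMIs sum to a fixed total, which pushes correlations between abundant genes below 0, and the values below are descriptions over cells of 1 library. Spearman's rho between Il1b and Retnlg was -0.48 over 593 marker-poor members of aged mice and -0.27 over 381 of aged-GA mice, and over all members it was -0.16 and -0.08. Between Retnlg and S100a8 with S100a9 it was 0.56 and 0.49 in marker-poor members, and 0.67 and 0.56 over all members. Between Il1b and S100a8 with S100a9 it was -0.44 and -0.21 in marker-poor members but -0.06 and 0.03 over all members. Interferon-stimulated genes took a median of 1.10%, 1.41% and 1.17%, and reached 12.6% in 1 aged cell.

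**Figure D5:**
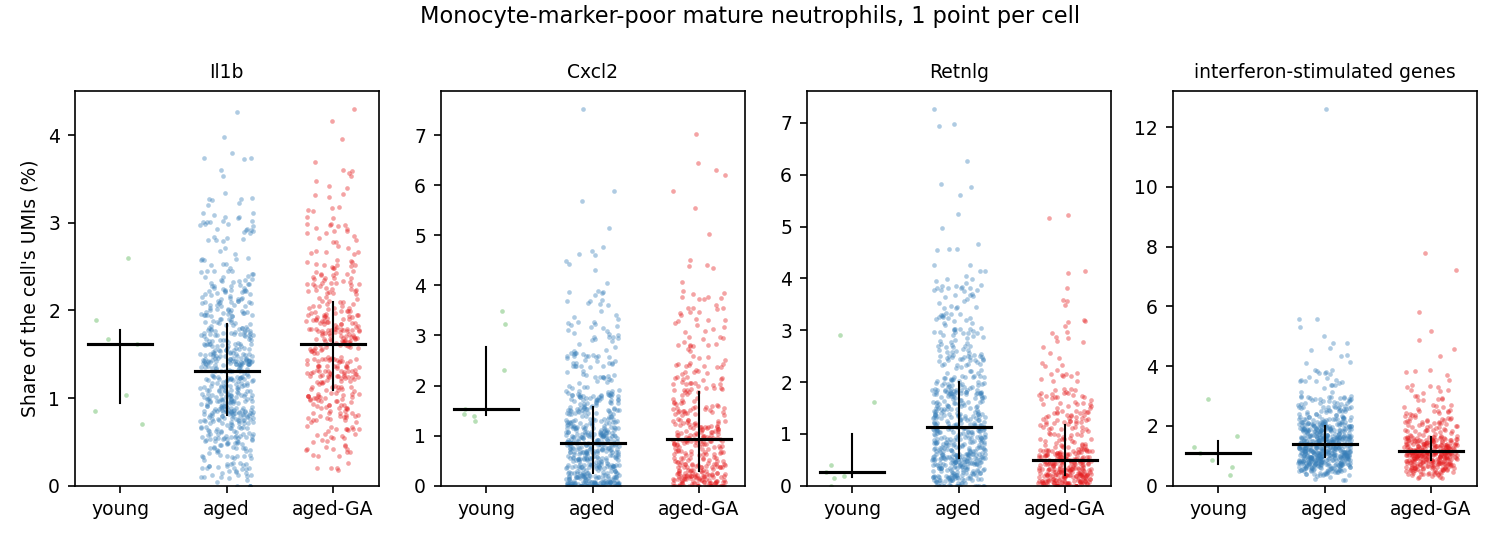
Share of the UMIs of each marker-poor mature neutrophil (percent, y axis) taken by Il1b, Cxcl2, Retnlg and the interferon-stimulated genes in young, aged and aged-GA mice, with a line at the median and a bar over the quartiles. The medians were 1.62%, 1.30% and 1.62% for Il1b and 0.258%, 1.13% and 0.499% for Retnlg.

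The young library had 9 mature neutrophils with 24972 UMIs, where 3 UMIs, the limit that a count of 0 allows, are 120 CPM. Beside them, 2120 of the 5040 genes counted (42.1%) were 2-fold or more higher in aged mice, but 1807 of these had no young UMI, and 503 (9.98%) were lower. At a minimum of 200 UMIs 488 were higher and 154 lower, and with TMM-scaled totals 235 were lower. In marker-poor members 692 of 2756 (25.1%) were higher, 499 of them with no young UMI, and 353 (12.8%) were lower, and Pearson's r of the log levels across genes was 0.717. Of the 10 genes with the largest ratio, all had 0 young UMIs. S100a4, at 968 CPM in aged members, was at least 8.06-fold higher against the young limit, Chil3, a chitinase-like protein, at 575 CPM, at least 4.79-fold, and Ly6c2, at 392 CPM, at least 3.27-fold. In marker-poor members these 3 genes had 40.1, 32.4 and 31.6 CPM, below the young limit of 142 CPM, and no fold is given.

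Most genes of NF-kappaB feedback that were counted had lower values in aged than in young mice. In marker-poor members 7 of the 12 counted were 2-fold or more lower, beside 12.8% of all genes, and 1 was higher, beside 25.1%, with a median ratio of -1.18, where the median of all genes was 0.10. In all members 7 of 16 were lower, beside 9.98% of all genes, and 2 were higher, beside 42.1%. Nfkbia had 11653 CPM in young and 1015 in aged members, a ratio of -3.51. It was in every young cell, with 10 to 63 UMIs and a median of 29, and 6109 to 21222 CPM per cell. Of 748 aged members 13 reached the lowest young cell, and of 462 aged-GA members 33 did. Nfkbiz, which encodes IkappaB-zeta, had 3404 CPM in young and 355 in aged members, and 3 to 20 UMIs per young cell, and 67 aged and 57 aged-GA members were at or above the lowest young cell, which had 1473 CPM. Tnfaip3 had 1241 and 93.5 CPM, and Tnf, in 7 of 9 young cells, had 681 and 31.2 CPM. Gadd45b, Ccrl2, Cd274, Zc3h12a, Bcl2a1d and Cmpk2 were the other genes among the 10 lowest, and Cd274, which encodes PD-L1, had 280 and 31.5 CPM. In marker-poor members the difference was smaller for Nfkbiz, at 2707 and 508 CPM, and Gadd45b, at 1377 and 252 CPM. Tnfaip3 had 1235 and 111 CPM there, and Tnf 617 and 40.9 CPM. Myeloid cells of the same libraries had lower values in aged mice too. Nfkbia was at 3870.0 CPM in 5 classical monocytes of young and 659.7 in those of aged mice, and at 2051 and 300.2 in granule-rich neutrophils, of which young mice also had 5, whereas B-cell barcodes had 934 and 544 and T-cell barcodes 720 and 693. The median ratio of the NF-kappaB list, aged over young, was -1.28 over 18 genes in classical monocytes and -1.36 over 4 in granule-rich neutrophils. It was 0.08 in B-cell and 0.49 in T-cell barcodes. The medians of all genes in these cells were 0.36, 0.10, 0.18 and 0.23.

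Il1b and Csf3r were near the same level in young and aged marker-poor members, with ratios of 0.01 and 0.04, whereas over all members the ratios were -0.77 and -0.64. The lower values in aged mice thus stood only with the monocyte-marked members included. Of the late granule genes, 7 of 12 were 2-fold or more higher in aged marker-poor members, beside 25.1% of all genes counted, with a median ratio of 1.15. The largest of these ratios, 3.12, was of a gene without a young UMI, so the tally of 7 rests in part on the pseudocount. Over all members they were 4 of 12, below the 42.1% of all genes, with a median of 0.70. Retnlg had 7265 and 16118 CPM in marker-poor members, but it was uneven in young cells, from 0 to 75 UMIs, with 47.8% of the UMIs in 1 cell. Lyz2 was higher in aged mice over all members, with 3204 and 8688 CPM, and not in marker-poor members, with 3371 and 3194 CPM. Ccl3 in young members was from 1 cell for 93.3% of its UMIs, and its ratio, aged over young, was -0.79 over all members and 3.04 in marker-poor members. Egr1 was higher in aged marker-poor members, at 380 and 2042 CPM, whereas Dusp2, another gene of the immediate early list, was lower, at 380 and 51.7 CPM. With 9 cells of 1 library, none of these ratios can be told apart from the state of that library.

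Members with 20 to 29 UMIs of S100a8 and S100a9 numbered 9 in aged mice and 14 in aged-GA mice, and barcodes just below, with 10 to 19 UMIs and all else met, numbered 16 and 19, while young mice had 0 of each. In aged mice the cells on both sides held much Lyz2 RNA, with Lyz2 at 16286 CPM inside and 18154 outside and Il1b at 3072 and 2298 CPM. In aged-GA mice they did not, with Lyz2 at 1927 and 1516 CPM and Il1b at 14194 and 18073 CPM. Granule genes had 1 or 2 UMIs in 61 aged and 39 aged-GA members, and 0 in the other 91.8% and 91.6%. Barcodes with 3 to 9 granule UMIs, 16 in aged mice and 4 in aged-GA mice, had more Retnlg and less Il1b than members, with 26535 and 3168 CPM in aged mice. Barcodes left out only for mitochondrial UMIs, 9 in aged mice and 20 in aged-GA mice, had 12429 and 16359 CPM of Il1b. Those left out only for 2 or more UMIs of Cd79a and Cd79b numbered 0, 52 and 49 in young, aged and aged-GA mice, with 4662 CPM of Il1b in aged mice and 4474 in aged-GA mice. Those left out only for 2 or more UMIs of Cd3d, Cd3e and Cd3g numbered 2, 31 and 56, with 8973, 4254 and 3797 CPM.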

How the data were processed

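The authors deposited 3 matrices of genes by barcodes, whose values are whole counts of UMIs with no normalization, from libraries of a 3′ droplet kit. The file headers name Cell Ranger 5.0.0, the methods another version, and the submitters' processing notes the build mm10. From these counts, barcodes were filtered, mature neutrophils were chosen by the stated rule, and UMIs were summed per library to CPM with Python 3.11.15, numpy 2.4.6, scipy 1.17.1 and pandas 2.3.3. The authors deposited no cell annotation. Members and gene lists were chosen with earlier results of these data known, so no list was tested.

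Ratios are log2 ratios of CPM plus a pseudocount of 10, over genes with at least 50 UMIs in both sums. Genes named are the markers, the genes of the rule and of the lists, the 10 highest and the 10 lowest ratios among genes with at least 50 CPM in either library, the 20 most abundant genes, and the 10 highest and the 10 lowest against granule-rich neutrophils and classical monocytes. Granule-rich neutrophils had at least 20 UMIs of S100a8 and S100a9 and 10 of Ngp, Camp and Ltf. Classical monocytes were not members and had at least 2 UMIs of Csf1r and Ccr2, 5 of Lyz2 and 1 of Ly6c2, and 0 of Cxcr2. B-cell barcodes had at least 5 UMIs of Cd79a and Cd79b and 0 of the Cd3 genes, and T-cell barcodes at least 3 of the Cd3 genes and 0 of Cd79a and Cd79b. Intervals are exact binomial for shares and exact Poisson for counts; they cover counting error only. Doublets were called by Scrublet in scanpy 1.11.5 and kept. Promoters came from RefSeq and gene positions from GENCODE. The sums were tested on simulated data.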

Additional observations from a re-analysis of the deposited data

How the results depend on the processing

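With 1 library per group nothing could be left out in turn, and no paired analysis was possible because each group holds 1 library and the labels give no replicate numbers. The cause was not tested for any of the differences below, except where a setting itself takes away cells or genes. Of the main results 224 alternative values kept their direction and size and 48 moved. Of the single genes, 1007 kept them, 191 moved and 12 reversed. The 1007 include settings that change only the minimum number of UMIs. That minimum decides which genes are counted and does not enter the ratio of a gene. Such values were the same by construction and say nothing on how firm the ratios are. Settings without platelet or MHC class II UMIs, and a denominator without monocytes and granule-rich neutrophils, were chosen after seeing the data.

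A mitochondrial limit of 5% gave log2 ratios of shares of -0.53, aged-GA over aged, and 5.15, aged over young. The genes 2-fold or more higher, aged-GA over aged, numbered 14 and then 32 in marker-poor members, 31 without members with MHC class II UMIs, 42 at a pseudocount of 1 and 8 at 50 CPM. Those lower numbered 18 and then 6 in marker-poor members, 32 without members with platelet UMIs, 181 without those with MHC class II UMIs, 68 at a pseudocount of 1 and 5 at 50 CPM, and 8 for the mean of barcode CPM. The median ratio of late granule genes was -0.45 in marker-poor members, -0.0846 without members with MHC class II UMIs and -0.38 for the mean of barcode CPM. That of immediate early genes was 0.31 in marker-poor members and 0.29 for the mean of barcode CPM. Without members with MHC class II UMIs it was 0.44 for interleukin 1 and 0.44 for ligands. The median of MHC class II was 2.05 in marker-poor members, 0.88 without members above the 90th percentile of UMIs, 1.86 without Scrublet doublets, 1.84 without members with platelet UMIs, 0.90 at a minimum of 20 UMIs and 1.09 for the mean of barcode CPM, and that of platelet genes was 1.46 without members with MHC class II UMIs and 0.56 at a pseudocount of 50 CPM.

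Aged over young, the genes 2-fold or more higher numbered 692 in marker-poor members, 1183 without those above the 90th percentile of UMIs, 1038 without members with platelet UMIs, 646 without those with MHC class II UMIs, 569 at a pseudocount of 50 CPM, 3278 at a minimum of 20 UMIs and 488 at 200 UMIs. Those lower numbered 333 without members with platelet UMIs, 257 without those with MHC class II UMIs, 228 at a pseudocount of 50 CPM, 820 at a minimum of 20 UMIs, 154 at 200 UMIs and 235 with TMM-scaled totals (edgeR 4.0.16). Nfkbia was in 53.2% of aged and 72.4% of aged-GA members thinned to 1000 UMIs and in 76.6% and 86.8% unthinned, and Retnlg in 92.9% and 86.6%, and in 96.4% and 94.8%.

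Reversed means only that the sign changed, and the new values of Csf3r, Il1b and Lyz2 were small. Genes that reversed were Csf3r, aged-GA over aged, at -0.0620 in marker-poor members and -0.0224 for the mean of barcode CPM. Aged over young, in marker-poor members, they were Il1b at 0.00926, Csf3r at 0.0379, Ccl3 at 3.04, Lyz2 at -0.0779 and S100a9 at 0.31. S100a9 was also at 0.20 without those above the 90th percentile of UMIs, 0.14 without members with platelet UMIs, 0.12 without those with MHC class II UMIs, 0.26 with TMM-scaled totals and 0.26 for the mean of barcode CPM.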
